A study of Mus musculus with 2 samples.

Results

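The cells described here are the islet beta cells in which insulin messages took the largest part of the captured transcripts. They were selected on that share: Ins1 and Ins2, the 2 mouse insulin genes, had to make up at least 65% of a cell's UMIs (unique molecular identifiers, 1 per captured transcript). Glucagon (Gcg) had to stay below 3%, somatostatin (Sst) below 1%, pancreatic polypeptide (Ppy) below 2%, and mitochondrially encoded genes at no more than 5%. The rule found 682 members among 8698 deposited cell barcodes, 569 in the transgenic and 113 in the wild type (WT) library. They were set against middle beta cells of the same library, with an insulin share from 45% to below 65%, of which there were 1951 transgenic and 2121 WT cells. Because the insulin share chose the members, every value of insulin itself is a description.

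Beta cells store insulin in dense core granules and release it when glucose rises. Preproinsulin enters the endoplasmic reticulum (ER), loses its signal peptide, folds with the help of chaperones and disulfide-forming oxidases, and passes the Golgi into granules, where prohormone convertases cut it. When the folding load exceeds capacity, the sensors PERK, IRE1 and ATF6 start the unfolded protein response, which slows translation and raises chaperones and the machinery that degrades misfolded proteins.

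The study compared islets of 10-week-old (postnatal day 70) C57BL/6 mice carrying a beta cell specific miR-503 transgene with islets of WT mice of the same age and strain. Islets were dispersed for 5 min at 37 °C in 0.08% trypsin with 0.006% EDTA and captured with 10x Chromium 3 prime chemistry, version 2. Each group was 1 library, and the number and sex of the mice behind it and the promoter that drives the transgene are not given in the sources used here. No difference below therefore has a replicate check and no test across samples was possible; the 95% intervals are exact (Clopper-Pearson for shares, conditional binomial for ratios), the limit given at a count of 0 is 3 counts of the total, and all cover counting error only. The genotype cannot be told apart from any other difference between the libraries.

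The sequences bearing on these cells come from RefSeq on GRCm38.p6. The first is the 5p arm of miR-503, the microRNA of the transgene, encoded at chrX:53054027-53054049 on the minus strand, shown because its seed (bases 2 to 8, in capitals) sets which messages it can bind. It has no poly(A) tail and was not counted by this assay.
miR-503-5p: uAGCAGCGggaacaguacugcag
The other 5 are the 250 bases before a gene's start in RefSeq; for Derl3 and Ero1b the GENCODE M21 annotation puts the start at another base. Ins1 is at chr19:52264047-52264296 on the plus strand, shown for the gene that, with Ins2, defined the members. The capitals mark the E box GCCATCTG, bound by basic helix-loop-helix factors, which starts 86 bases before that start and occurs on either strand in 1.11% of 32851 promoter windows.
Ins1: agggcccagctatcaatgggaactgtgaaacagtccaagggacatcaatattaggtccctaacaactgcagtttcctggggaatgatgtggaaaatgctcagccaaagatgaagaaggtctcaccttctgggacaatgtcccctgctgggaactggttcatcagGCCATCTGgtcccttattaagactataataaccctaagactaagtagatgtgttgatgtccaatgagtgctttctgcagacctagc
Derl3 at chr10:75893148-75893397 and Creld2 at chr15:88819396-88819645, both on the plus strand, are genes known to be induced by ER stress that were lower in members. Syvn1 at chr19:6046326-6046575 on the plus strand is another of these, and Ero1b (Ero1lb in the count table) at chr13:12565633-12565882 on the plus strand is the marker whose ratios were near 0. In these 4 the capitals mark the ER stress response element, searched as CCAAT and CCACG with 9 bases between them on both strands and present in 37 of the 32851 windows (0.113%).
Derl3: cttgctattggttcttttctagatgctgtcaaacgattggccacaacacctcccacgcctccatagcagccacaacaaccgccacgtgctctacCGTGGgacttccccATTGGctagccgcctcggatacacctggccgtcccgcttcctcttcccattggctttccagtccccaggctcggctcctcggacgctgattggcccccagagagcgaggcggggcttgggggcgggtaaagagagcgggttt
Creld2: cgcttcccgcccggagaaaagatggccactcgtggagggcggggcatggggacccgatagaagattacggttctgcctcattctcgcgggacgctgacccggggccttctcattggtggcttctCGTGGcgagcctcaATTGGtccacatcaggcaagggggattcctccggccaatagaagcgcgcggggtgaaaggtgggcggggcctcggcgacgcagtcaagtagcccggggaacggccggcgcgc
Syvn1: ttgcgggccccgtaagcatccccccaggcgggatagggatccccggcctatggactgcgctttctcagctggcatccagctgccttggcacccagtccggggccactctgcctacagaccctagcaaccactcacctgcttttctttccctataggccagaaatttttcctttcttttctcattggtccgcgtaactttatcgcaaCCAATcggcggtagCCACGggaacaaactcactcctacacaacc
Ero1b: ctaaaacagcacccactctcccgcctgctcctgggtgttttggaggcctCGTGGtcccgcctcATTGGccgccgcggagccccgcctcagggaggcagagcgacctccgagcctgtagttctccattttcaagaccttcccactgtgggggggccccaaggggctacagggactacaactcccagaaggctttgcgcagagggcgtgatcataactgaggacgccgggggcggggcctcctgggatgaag
A match is a run of letters and does not show that a factor binds there.

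The label was checked against beta cell markers. CPM here means UMIs per 1000000 UMIs outside Ins1 and Ins2. Outside the insulin genes, which the rule used, the other 8 beta cell markers summed to 128400 CPM in transgenic and 145100 CPM in WT members, against 102700 and 110700 CPM in the middle cells and 11970 and 15990 CPM in cells under 20% insulin. None of the 8 was at 0 in members, and 5 were higher and 2 lower than in middle cells in both libraries. The 2 lower ones were Derl3 and Nkx6-1. In members, G6pc2, Derl3, Ero1lb, Pdx1, Slc2a2 and Ucn3 held only a small part of each sum. The rest came from Iapp and Nkx6-1. The 3 markers proposed beside insulin did not share a direction. G6pc2, the islet glucose-6-phosphatase subunit at chromosome 2 positions 69211073 to 69227841, was higher in members than in middle cells, Derl3 was lower and Ero1lb differed little; their values follow with the genes of their pathways.

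**Figure D1:**
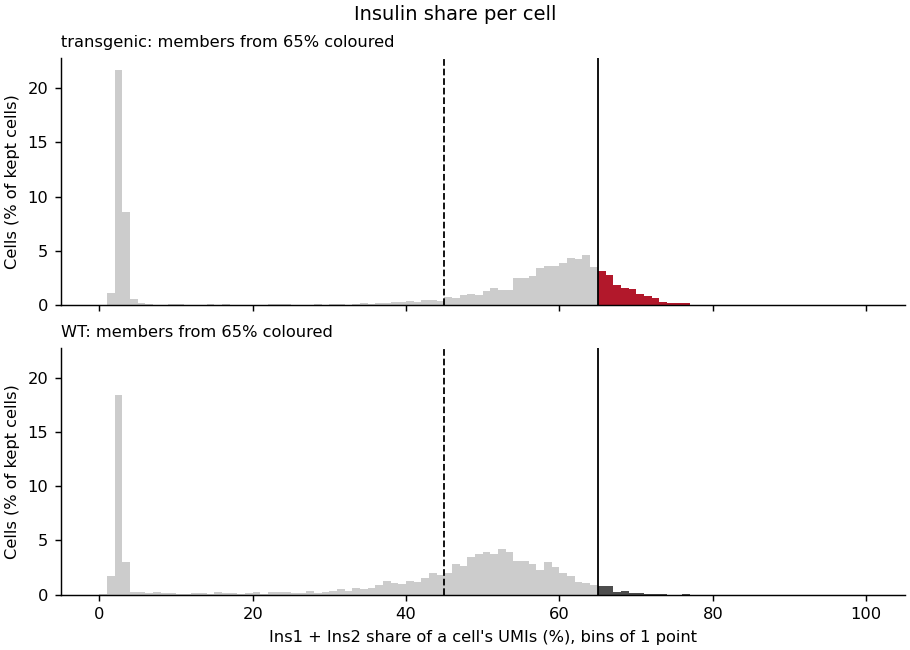
Histogram of the Ins1 plus Ins2 share of each cell's UMIs (x axis, percent, bins of 1 point) as a percent of cells within the mitochondrial limit (y axis), for 4038 transgenic and 3920 WT cells. The dashed line is at 45% and the solid line at 65%; members are coloured and make up 14.1% of the transgenic and 2.88% of the WT cells, at the upper edge of one continuous distribution.

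Members were more frequent among transgenic beta cells. Of beta cells, taken as cells with at least 25% insulin inside the other limits, they made up 21.6% of 2632 transgenic cells (20.1 to 23.2) and 4.03% of 2805 WT cells (3.33 to 4.82). Of all cells within the mitochondrial limit they made up 14.1% (13.0 to 15.2) in the transgenic and 2.88% (2.38 to 3.46) in the WT library. The transgenic share was higher in 10 of 10 bins of UMIs outside insulin, with 14.8% to 30.4% in the transgenic and 1.77% to 9.03% in the WT library. The whole distribution lay higher in the transgenic library, as the histogram of insulin shares shows, so the median share within the middle cells also differed, at 59.0% in transgenic and 53.1% in WT cells.

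The members formed no separate group at the threshold. The bin from 65% to 66% held 125 transgenic and 32 WT cells, and the bin from 64% to 65% just outside it held 143 transgenic and 36 WT cells. Median insulin UMIs in these bins were 22784 just inside and 21371 just outside in the transgenic library, and 25341.5 just inside and 25584 just outside in the WT library. Most members lay near the threshold, with 435 transgenic and 97 WT members from 65% to below 70%, 120 and 15 from 70% to below 75%, and 14 and 1 from 75%. The highest share was 77.8% in a transgenic and 76.3% in a WT member.

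By medians, a high share came with more insulin UMIs and a similar number of other UMIs. Transgenic members had a median of 26242 insulin UMIs per cell against 16493 in transgenic middle cells, 1.59 times as many. WT members had 24766 against 13082 in WT middle cells, 1.89 times as many. The median of UMIs from all other genes was 11970 in transgenic members and 11598 in transgenic middle cells, a ratio of 1.03, and 12209 in WT members and 11511 in WT middle cells, a ratio of 1.06. Total UMIs were therefore higher in members, with medians of 38475 against 28139 in the transgenic and 37417 against 24476 in the WT library. The means of other UMIs were lower in members, at 12317 against 12755 in the transgenic and 11448 against 12320 in the WT library. Of the 10 bins of other UMIs, the lowest had the highest WT member share, 9.03%, and a transgenic share of 29.2%. Some members thus had few other UMIs.

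**Figure D2:**
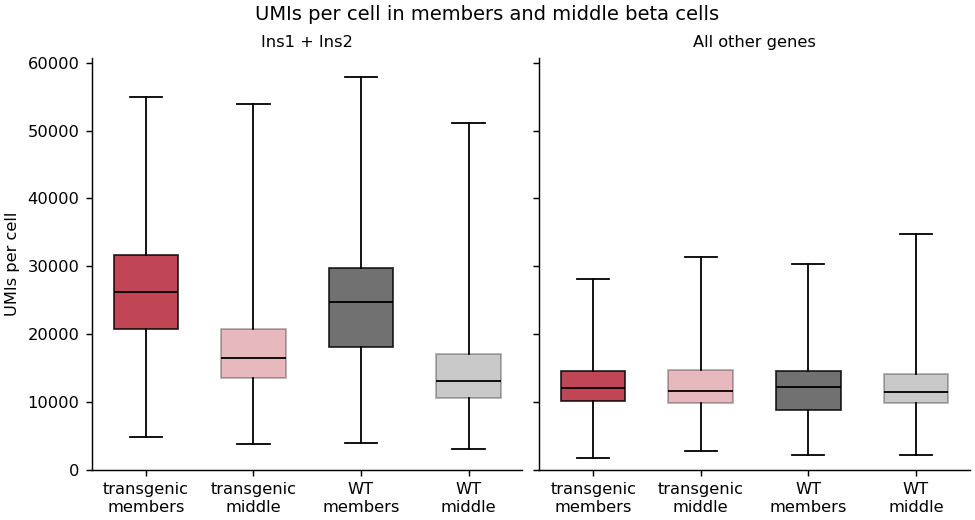
UMIs per cell (y axis) for Ins1 plus Ins2 (left panel) and all other genes (right panel) in members and middle beta cells of each library; boxes span the quartiles, lines are medians and whiskers reach the lowest and highest cell. The insulin boxes of members sit above those of middle cells, and the 4 boxes for other genes have medians between 11511 and 12209.

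At the highest shares the other UMIs were fewer. The 14 transgenic cells from 75% had a median of 25150.5 insulin UMIs and 7894.5 other UMIs, against 30532 and 11883.5 in the 120 transgenic cells from 70% to below 75%. Both insulin genes were higher in members. Ins1 had a median of 7743 UMIs in transgenic members against 4563 in middle cells, and Ins2 18443 against 11845. In the WT library Ins1 had 7042 against 3553 and Ins2 17597 against 9483. Ins1 made up a median of 30.1% of insulin UMIs in transgenic members against 27.6% in transgenic middle cells, and 28.6% in WT members against 27.3% in WT middle cells, with quartiles that overlapped in both libraries.

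Members also differed from middle cells in measures of quality. Mitochondrially encoded genes took a median of 1.51% of UMIs in transgenic members against 2.13% in middle cells, and 1.78% against 2.85% in the WT library. Outside insulin these medians were 4.77% against 5.17% and 5.46% against 6.19%. Members had fewer detected genes at equal depth: after each cell was thinned to 3000 UMIs outside insulin the median was 1349.5 genes in transgenic members against 1390 in middle cells, and 1321 against 1384 in the WT library. Unthinned medians were 3395 against 3431 and 3293 against 3412. The thinning left out 9 transgenic and 8 WT members, and 1 transgenic and 12 WT middle cells. Cells among the top 4% of doublet scores were 7 of 569 transgenic members (1.23%) against 77 transgenic middle cells (3.95%), and 0 of 113 WT members (which allows a share of up to 2.65%) against 84 WT middle cells (3.96%). The 2 libraries shared 25 barcode sequences, of which 1 belonged to a transgenic member and 0 to a WT member.

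Genes other than insulin were compared on CPM of summed UMIs outside insulin, so that the insulin share does not enter the scale. The sums rest on 7008184 and 1293637 UMIs outside insulin in transgenic and WT members, and on 24885676 and 26129654 in the middle cells. A gene was counted where members and middle cells were at least 1.5-fold apart in the same direction in both libraries. Of 5886 genes with at least 100 UMIs over both groups and 20 CPM in 1 of them, 18 (0.306%) were higher and 148 (2.51%) lower in members. The median log2 ratio over all genes was −0.09 in the transgenic and −0.11 in the WT library. In the transgenic library alone 26 (0.442%) were higher and 195 (3.31%) lower, and in the WT library alone 133 (2.26%) were higher and 811 (13.8%) lower; the WT middle cells lie farther from the members in insulin share and the WT members are fewer. Scaled to all UMIs, insulin included, the median of all genes shifts by −0.39 in the transgenic and −0.49 in the WT library, and 1 gene was higher and 846 were lower. The minimum of 20 was then also counted on all UMIs, which is a stricter limit, and 71 of the 148 were among the 846. Total UMIs moved with the comparison: when middle cells were reweighted to the members' total UMIs, 2 genes were higher (Ddit4 and Pdgfrl) and 48 lower, 40 of them among the 148.

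**Figure D3:**
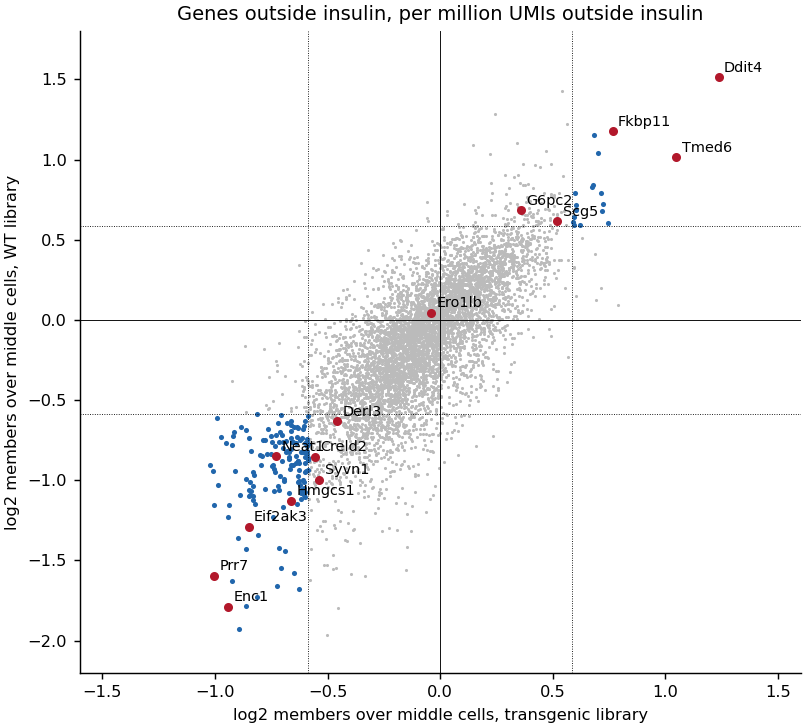
Log2 ratio of members over middle cells in the transgenic library (x axis) and in the WT library (y axis) for 5886 genes, each a point, as CPM outside insulin; blue points are the genes at least 1.5-fold apart in the same direction in both (18 higher, 148 lower), red points are labelled genes and dotted lines mark 1.5-fold. Ddit4 stands farthest to the upper right, and most genes past 1.5-fold lie at the lower left.

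Ddit4, a stress-induced inhibitor of the growth regulator mTORC1, had the largest ratio in both libraries among the genes called higher. Its level was 146 CPM in transgenic members against 61.9 in middle cells, and 216 in WT members against 75.8 in middle cells. The log2 ratios were 1.24 (1.12 to 1.35) and 1.51 (1.33 to 1.69), and 0.82 and 0.79 when matched on total UMIs. Its UMIs were found in 319 of the 569 transgenic and 72 of the 113 WT members. The rank used the smaller ratio of the 2 libraries, and by it Tmed6 and Fkbp11 followed. Tmed6, a p24 family cargo receptor of the early secretory pathway that is expressed in islets, stood at 1.05 (0.78 to 1.31) and 1.01 (0.41 to 1.57). Fkbp11, an ER prolyl isomerase of secretory cells, had 109 CPM in transgenic members against 64.3, and 91.2 in WT members against 40.3, or 0.77 (0.64 to 0.89) and 1.18 (0.89 to 1.45). The counting intervals of both genes lay above 0 in both libraries.

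The other genes named by their rank had metabolic and less defined roles. Etfb, a subunit of the electron transfer flavoprotein that passes electrons from fatty acid oxidation to the respiratory chain, stood at 0.72 in transgenic and 0.79 in WT cells. Taldo1, transaldolase of the pentose phosphate pathway, stood at 0.67 and 0.83, Fn3k, which removes sugars from glycated proteins, at 0.72 and 0.72, and Aga, a lysosomal glycoprotein-degrading enzyme, at 0.68 and 0.84. Dapl1 stood at 0.68 and 1.15, Pdgfrl at 0.70 and 1.04, and Fam151a at 0.72 and 0.68. All 10 genes named here as higher were above 0 in both libraries also when scaled to all UMIs, with Ddit4 at 0.84 in the transgenic and 1.03 in the WT library on that scale.

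Of genes lower in members, Prr7, a small membrane protein of synapses and T cells, had 85.0 CPM in transgenic members against 170.5 in middle cells, and 54.9 in WT members against 165.8. Its log2 ratios were −1.003 (−1.13 to −0.88) and −1.59 (−1.95 to −1.26). Enc1, an actin-binding protein of neurons, stood at −0.94 and −1.79, Arl13b, a GTPase of cilia, at −0.93 and −1.63, and Ctbp2, a transcriptional co-repressor, at −0.99 and −1.03. Abcc1, an efflux transporter, stood at −1.01 and −1.15, and Ttbk2, a kinase that starts cilium assembly, at −0.94 and −1.23. Ifit1, an interferon-induced antiviral protein, stood at −0.94 and −1.15, Ifngr2, a subunit of the interferon gamma receptor, at −1.02 and −0.90, and Nfkbie, an inhibitor of NF-kappaB, at −0.91 and −0.94. Dzip1l, a protein of the ciliary base, stood at −1.01 and −0.94. Apart from Prr7 and Ifit1 these genes were below 60 CPM in all 4 groups, and their intervals are wide, as for Abcc1 in WT cells (−2.03 to −0.40).

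The gene lists below were described by counts and medians, set beside those of all genes. Of all 5886 genes, 27.5% were higher in members in both libraries and 53.65% lower in both. Scaled to all UMIs every log2 ratio of a gene is lower by 0.39 or 0.49, and on that scale more genes were lower than higher in both libraries in each list described here. Ratios that are positive but below these amounts therefore turn negative on it. No list is called particular to members from these counts.

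Granule and prohormone genes stood above the median of all genes. Of 18 granule cargo and membrane genes past the filter (20 listed), 16 were higher in members in both libraries, though only 2 were when scaled to all UMIs, and none passed 1.5-fold in both. The list median lay 0.31 above that of all genes in the transgenic and 0.41 above it in the WT library. Chga, the granule protein chromogranin A, had 7578 CPM in transgenic members against 5608 in middle cells, and 11049 in WT members against 7301, or 0.43 (0.42 to 0.45) and 0.60 (0.57 to 0.62). Scg2, another granin, stood at 0.37 and 0.46, and Ucn3, a peptide released with insulin that marks mature beta cells, at 0.43 and 0.62. Of the 8 prohormone processing genes 5 were higher in both libraries, and 2 when scaled to all UMIs. Pcsk1, the convertase that begins the cutting of proinsulin, had 81.8 CPM in transgenic members against 57.7, and 114 in WT members against 69.9, or 0.50 and 0.71. Scg5, a chaperone of the convertase Pcsk2, stood at 0.52 and 0.62, and Pcsk2 itself at 0.30 and 0.41.

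The genes of release did not follow those of the granule. Of 16 exocytosis genes past the filter, 4 were higher and 12 lower in both libraries, with list medians, relative to all genes, of −0.05 in the transgenic and −0.16 in the WT library. Matched on total UMIs these medians were 0.003 and −0.012, near all genes, with 4 genes higher and 11 lower in both. Snap25, a membrane fusion protein, stood at −0.26 in transgenic and −0.42 in WT cells, Syt7, a calcium sensor of insulin release, at −0.31 and −0.31, and Rab3a, a granule GTPase, at 0.28 and 0.36.

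Energy genes were mostly higher relative to the other genes outside insulin. Of 75 nuclear-encoded genes of oxidative phosphorylation, 74 were higher in members in both libraries, 65 when matched on total UMIs, but 3 when scaled to all UMIs. The list median was 0.22 in the transgenic and 0.33 in the WT library, 0.31 and 0.44 above all genes. Single ratios were small: none of the 75 was past 1.5-fold in the transgenic and 3 were in the WT library. Atp5b, the catalytic subunit of ATP synthase, had 497 CPM in transgenic members against 368 in middle cells, and 473 in WT members against 330, or 0.43 (0.38 to 0.49) and 0.52 (0.40 to 0.64). The 12 mitochondrially encoded genes past the filter did not follow, with 0 higher and 9 lower in both libraries; their total is limited by the rule. Of 10 genes past the filter in the list of glycolysis and of enzymes that beta cells normally keep low, 8 were higher in both, and 0 when scaled to all UMIs, with Gapdh at 0.33 and 0.40 and Pkm, pyruvate kinase, at 0.32 and 0.44.

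Among glucose sensing genes, G6pc2 had 786 CPM in transgenic members against 613 in middle cells, and 995 in WT members against 620. The log2 ratios were 0.36 (0.31 to 0.40) and 0.68 (0.60 to 0.76); when scaled to all UMIs the transgenic one was −0.03 and the WT one 0.20. Slc2a2, the glucose transporter of mouse beta cells, stood at 0.35 and 0.33, and Trpm5, a cation channel that depolarizes the cell, at 0.46 and 0.44. Of the 16 genes of this list past the filter 9 were higher and 5 lower in both libraries.

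Lists of ER genes were read in the order of insulin synthesis. The translocon, signal peptidase and oligosaccharyl transferase list had 18 of 29 genes higher in both libraries (3 when scaled to all UMIs) and 7 lower, with medians 0.17 and 0.25 above all genes. Ssr4, a subunit of the translocon-associated protein complex, had 985 CPM in transgenic members against 738, and 875 in WT members against 609, or 0.42 and 0.52. Spcs1, of the signal peptidase, stood at 0.43 and 0.45, and Dad1 and Ddost, of the oligosaccharyl transferase, at 0.43 and 0.50 and at 0.41 and 0.59. The chaperone and oxidative folding list had 7 of 26 genes higher (26.9%) and 14 lower (53.85%) in both libraries, close to the shares of all genes, with medians within 0.03 of theirs. Fkbp2, a prolyl isomerase, was at 0.31 and 0.51 beside Fkbp11. Hspa5, the main ER chaperone BiP, had 2774 CPM in transgenic members against 3467 in middle cells, and 2366 in WT members against 3106, or −0.32 (−0.34 to −0.30) and −0.39 (−0.45 to −0.34).

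Of 19 genes of ER-associated degradation 4 were higher (21.05%) and 12 lower (63.2%) in both libraries, against 27.5% and 53.65% of all genes (8 and 9 genes under TMM scaling, a trimmed mean of gene ratios). The list medians, relative to all genes, were −0.03 in the transgenic and −0.23 in the WT library, and 0.02 and −0.08 when matched on total UMIs, so the list as a whole was near all genes in the transgenic library. Derl3, a channel component of that machinery named as a marker of these cells, had 180 CPM in transgenic members against 248 in middle cells, and 102 in WT members against 158. Its log2 ratios were −0.46 (−0.55 to −0.37) and −0.63 (−0.89 to −0.38), and −0.32 and −0.38 when matched on total UMIs. Against its use as a marker, it was thus lower in members than in middle cells of both libraries. Syvn1, the ubiquitin ligase of the same machinery, had 78.8 CPM in transgenic members against 114, and 60.3 in WT members against 120, or −0.54 and −0.997, and Herpud1, its stress-induced adaptor, stood at −0.42 and −0.53. Ero1lb, the beta cell disulfide oxidase, had nearly the same level, with 856 CPM in transgenic members against 881 and 853 in WT members against 827, or −0.04 (−0.08 to −0.00) and 0.05 (−0.04 to 0.13).

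The ER stress response element printed above in Derl3, Syvn1, Creld2 and Ero1b was found in 2 of the 12 degradation genes and 8 of the 22 chaperone and folding genes that had a promoter entry, against 0.113% of all windows. The chaperone genes with it were Calr, Canx, Creld2, Dnajc3, Ero1b, Hsp90b1, Hspa5 and Pdia6. Their ratios were not of 1 direction. Creld2, a folding factor induced by ER stress, had 352 CPM in transgenic members against 517, and 272 in WT members against 491, or −0.56 (−0.62 to −0.49) and −0.85 (−1.01 to −0.70). Hsp90b1, the ER form of HSP90, stood at −0.31 and −0.45, and Calr, calreticulin, at −0.18 and −0.33. Dnajc3 stood at 0.05 and 0.09 and Pdia6, a disulfide isomerase, at −0.06 and 0.13. Herpud1 and Sdf2l1, a folding factor at −0.26 and −0.49, were also lower in both libraries. Their windows hold both CCAAT and CCACG, but not in the searched order with 9 bases between them. Other spacings and orders were not searched.

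The regulators of the unfolded protein response were mostly lower. Of 17 genes 15 were lower in both libraries, 5 of them past 1.5-fold in both, and 1 was higher in both, with 15 lower also when matched on total UMIs. Eif2ak3, which encodes the sensor PERK, had 35.7 CPM in transgenic members against 64.3, and 24.0 in WT members against 58.6, or −0.85 (−1.05 to −0.66) and −1.29 (−1.85 to −0.78). Ddit3, the stress-induced transcription factor CHOP, had 723 against 1099 in the transgenic and 564 against 1000 in the WT library, or −0.61 and −0.83. Ppp1r15b, which reverses the translation block, stood at −0.72 and −1.06, and Atf3, a stress-induced transcription factor, at −0.66 and −0.90. Ern1, which encodes IRE1, stood at −0.31 and −1.01. Ddit4, which ER stress can also induce, was higher.

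**Figure D4:**
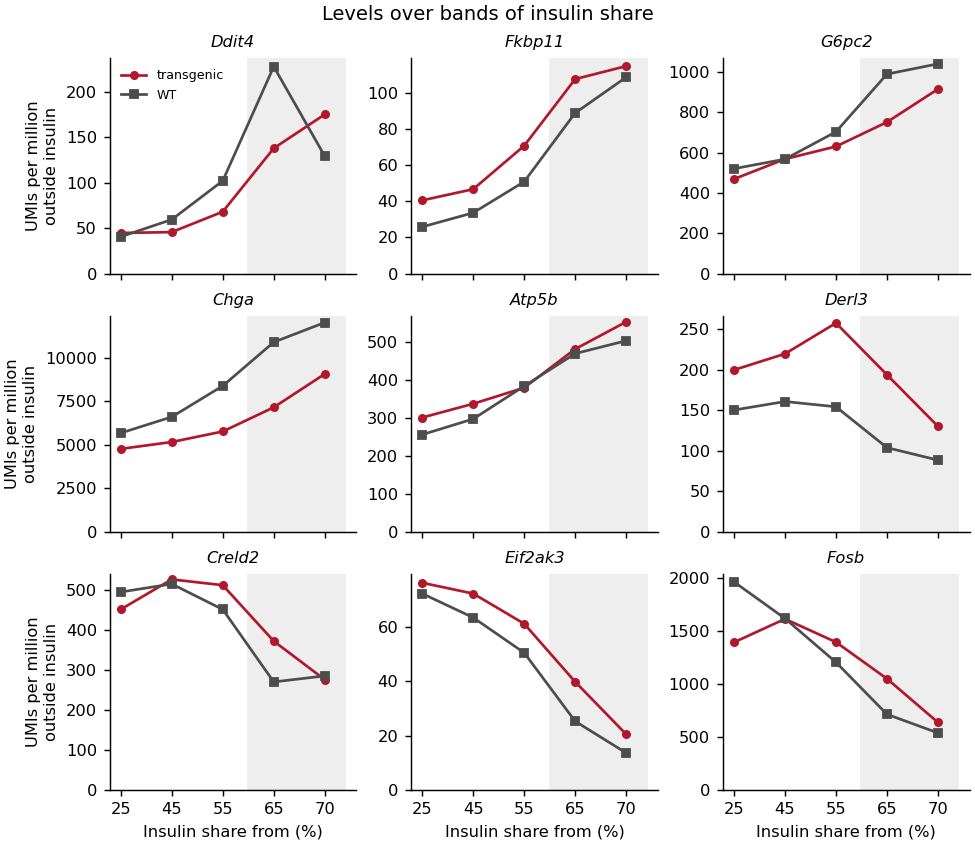
Level (y axis, CPM outside insulin) of 9 genes in beta cells by insulin share (x axis, bands from 25%, 45%, 55%, 65% and 70%) in the transgenic and WT libraries; the shaded bands hold the members. G6pc2, Fkbp11 and Chga are higher in each successive band in both libraries, Eif2ak3 is lower in each, and Derl3 and Creld2 are highest in a band below 65%.

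The levels over bands of insulin share placed these differences along the whole range. Eif2ak3 was lower in each successive band, at 76.5, 72.5, 61.3, 39.9 and 20.5 CPM from the band at 25% to that at 70% in the transgenic library, and at 72.5, 63.6, 50.6, 25.3 and 13.6 in the WT library. Fkbp11 was higher in each, at 40.5, 46.7, 70.8, 108 and 115 in the transgenic and 25.8, 33.6, 50.9, 89.0 and 109 in the WT library. Derl3 was not ordered in this way: it was at 200, 220, 258, 194 and 130 in the transgenic and 150, 161, 154, 104 and 88.4 in the WT library, with the highest value in the band from 55% in the transgenic and from 45% in the WT library. Ddit4 was higher in each transgenic band, with 175 in the last, while in the WT library it was 228 from 65% to below 70% and 129 from 70%, a band of 16 cells.

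Further lists lay below the median of all genes. Of 17 sterol and fatty acid synthesis genes 15 were lower in both libraries, with medians, relative to all genes, of −0.24 in the transgenic and −0.36 in the WT library. Hmgcs1, which makes the precursor of the mevalonate pathway, had 131 CPM in transgenic members against 207, and 134 in WT members against 292, or −0.66 (−0.76 to −0.56) and −1.13 (−1.35 to −0.91). Cyp51, a later enzyme of that route, stood at −0.51 and −1.02. Of 15 insulin and IGF signalling genes 14 were lower in both and none higher in both, with Irs2, an adaptor of the insulin receptor, at −0.35 and −0.73 and Foxo3, a transcription factor that insulin signalling restrains, at −0.44 and −0.89.

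Of 20 immediate early genes past the filter 3 were higher and 12 lower in both libraries, 5 of the 12 past 1.5-fold in both; matched on total UMIs, 0 were higher and 19 lower. Fosb had 961 CPM in transgenic members against 1455, and 693 in WT members against 1460, or −0.60 and −1.07. Jund stood at −0.59 and −0.87 and Nr4a1, an activity-induced nuclear receptor, at −0.74 and −0.93. Of 13 cytosolic heat shock genes 2 were higher and 9 lower in both, and 0 and 11 when matched on total UMIs, with Bag3 at −0.58 and −0.63 and Hsph1 at −0.33 and −0.62. Of 7 interferon-induced genes past the filter 5 were lower in both, with Irf1 at −0.57 and −1.43 and Rsad2, an antiviral enzyme, at −0.59 and −0.94. The list held 22 genes, so the rest did not pass the filter.

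Of 17 transcription factors of beta cell identity 3 were higher and 11 lower in both libraries (64.7%, against 53.65% of all genes), with medians, relative to all genes, of −0.02 in the transgenic and −0.08 in the WT library. Pdx1, which activates the insulin genes, had 129 CPM in transgenic members against 105, and 138 in WT members against 95.1, or 0.30 (0.19 to 0.41) and 0.53 (0.31 to 0.75). Hnf4a stood at −0.76 and −0.55, Glis3 at −0.38 and −0.83 and Rfx3 at −0.61 and −0.68. Proteins that bind insulin messages were not higher: of 13 listed genes past the filter 11 were lower and none higher in both libraries, with Tia1 at −0.42 and −0.83 and Ptbp1, which stabilizes insulin messages, at −0.25 and −0.36. Of 77 cytosolic ribosomal protein genes 63 were lower in both and none higher in both (35 and 7 under TMM scaling), with ratios from −0.22 to 0.11. Translation factors had 6 of 28 higher and 13 lower in both libraries, but 13 higher and 9 lower under TMM scaling. COPII and Golgi transport genes had 10 of 28 higher and 13 lower, but 20 higher and 8 lower under TMM scaling, with Tmed3, a cargo receptor, at 0.51 and 0.54.

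Of the remaining lists, proteasome subunits, a list added after values had been seen, had 31 of 36 genes higher in both libraries (3 when scaled to all UMIs, 21 when matched on total UMIs). Psmd6, a regulatory subunit, stood at 0.57 and 0.71. Antioxidant and metallothionein genes had 9 of 18 higher and 5 lower in both, with the peroxidase Prdx2 at 0.41 and 0.64 and the metal-binding Mt2 at −0.56 and −0.51. The senescence list had 3 of 10 higher and 6 lower, with Cdkn1a, a cell cycle inhibitor, at −0.49 and −0.55, and MHC class I genes had 4 of 9 higher and 4 lower (6 and 3 under TMM scaling). Of 8 known targets of the miR-503 family past the filter (24 listed) 6 were lower and none higher in both libraries, with Ccnd1, cyclin D1, at −0.17 and −0.50. The 4 nuclear retained noncoding RNAs past the filter were lower in both libraries, with Neat1 at −0.73 and −0.85 and Malat1 at −0.14 and −0.31; their part in the other differences was not tested. Of the 20 cell cycle genes 3 passed the filter, none in the same direction in both libraries, and of 13 dedifferentiation genes 4 did.

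**Figure D5:**
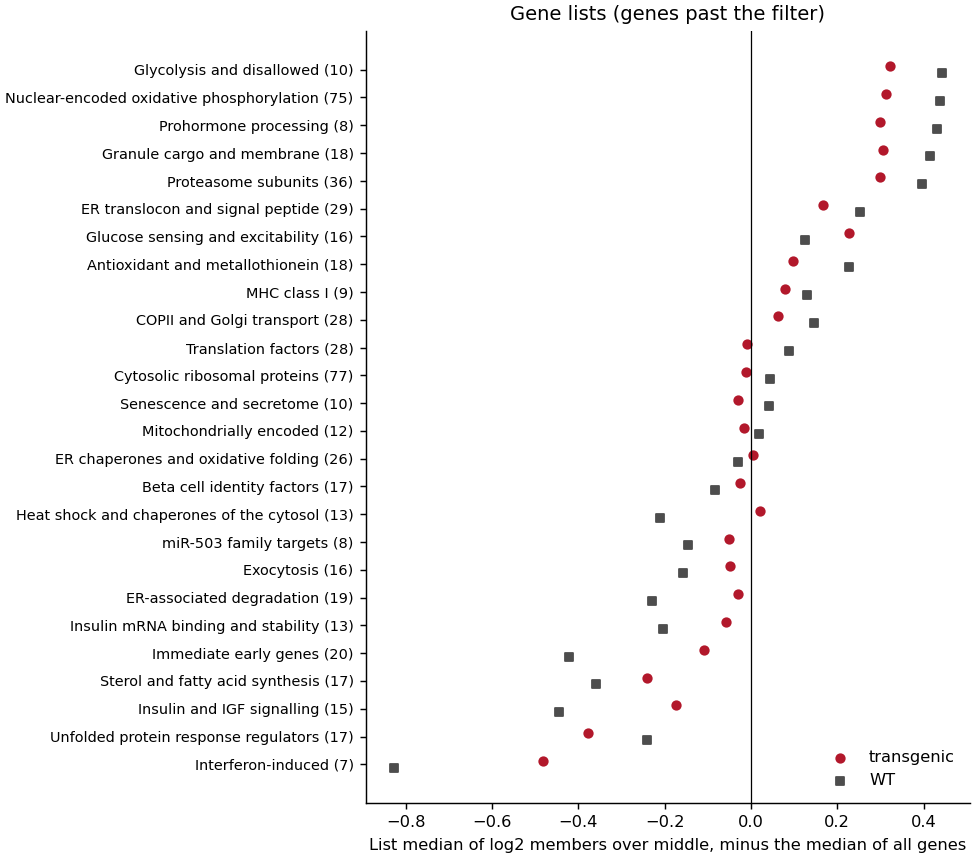
Median log2 ratio of members over middle cells in each gene list, minus the median of all genes (x axis), for the transgenic (circles) and WT (squares) libraries; the number of genes past the filter is in brackets. Glycolysis, oxidative phosphorylation, prohormone processing, granule and proteasome lists lie 0.30 to 0.44 above 0, and interferon-induced genes lie lowest.

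The same direction held in both libraries for most of these values, and the WT ratio was the farther from 0 in 13 of the 18 genes called higher and 124 of the 148 called lower. When WT middle cells were reweighted to the insulin share of transgenic middle cells, 8 genes were higher and 106 lower in both, all among those counted before.

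Transgenic and WT members were then compared with each other. Of 6006 genes past the filter, 335 (5.58%) were higher and 169 (2.81%) lower in transgenic members by at least 1.5-fold. The ratio rests on 1293637 UMIs from 113 WT cells, so that several of the largest ratios stand on few WT UMIs. The filter was uneven between the genotypes. Transgenic members held 7008184 UMIs outside insulin, so a gene higher in them reached the minimum of summed UMIs more easily. A gene equally far apart in the other direction could fail it. With no filter the counts were 1770 higher and 1651 lower, so the larger number of higher genes depends on the filter. Medians per cell were close, at 26242 and 24766 insulin UMIs and 11970 and 12209 other UMIs in transgenic and WT members.

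Among the genes named as highest in transgenic members, Caly, a neuronal vesicle protein, had 29.8 CPM against 6.96 in WT members, a log2 ratio of 2.0998 (1.15 to 3.25) on 209 and 9 UMIs; the same ratio in middle cells was 1.73. Adgrb3, an adhesion receptor, stood at 1.63 (0.85 to 2.52) in members and 1.82 in middle cells, and Col27a1, a fibrillar collagen, at 1.82 and 1.67. Slc2a6, a glucose transporter of lysosomes, stood at 1.92 (1.12 to 2.85) in members and 0.96 in middle cells. Angptl7 stood at 1.84 and 1.56, Fer1l6 at 1.504 and 1.11 and Gm37459 at 1.68 and 0.62. Clps, colipase, is made by acinar cells and stood at 2.34 in members. Beside it the 10 acinar markers summed to 223 CPM in transgenic and 35.6 in WT members, against 1557 and 70.0 in cells under 20% insulin, and the part of acinar RNA in the Clps ratio was not tested.

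Among the lowest, Npy, neuropeptide Y, stood apart through single cells: it had 4 UMIs in 4 transgenic members and 297 UMIs in 6 WT members, 73.7% of the WT UMIs from 1 cell. Snhg11, a noncoding RNA, had 10.7 CPM in transgenic members against 44.8, a log2 ratio of −2.07 (−2.58 to −1.55). Dsp, desmoplakin of cell junctions, stood at −1.72 (−2.30 to −1.13), and −1.40 in middle cells. Fkbp1b, a regulator of ryanodine receptors, had 90.6 CPM in transgenic members against 214 in WT members, or −1.24 (−1.45 to −1.03), and −0.89 in middle cells. Gstm2, a glutathione transferase, stood at −1.5003, Cdc14b, a phosphatase, at −1.30, Tmem184c at −1.21, Pla2g16, a phospholipase, at −1.15, Rab4b, an endosomal GTPase, at −1.14 and Them6 at −1.12.

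The marker genes differed between the genotypes within members. Derl3 was higher in transgenic members, at 180 against 102 CPM, a log2 ratio of 0.82 (0.56 to 1.09), and at 0.65 (0.59 to 0.70) in middle cells. G6pc2 was lower in transgenic members, at −0.34 (−0.43 to −0.25), and at −0.01 (−0.05 to 0.02) in middle cells. Ero1lb was at 0.00 (−0.09 to 0.10). Ins1 and Ins2, relative to the other genes, were at 0.08 and 0.05.

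The lists were read beside all genes, of which 55.5% were higher in transgenic than in WT members and 51.0% were higher in transgenic than in WT middle cells. Of 13 cytosolic heat shock genes 12 were higher in transgenic members, 3 past 1.5-fold, with a median 0.34 above that of all genes, and 11 of 13 were higher in transgenic middle cells, with a median 0.15 above. Hspb1, a small heat shock protein, had 848 CPM in transgenic members against 416 in WT members, or 1.03 (0.90 to 1.16), and Hspa1b, an inducible HSP70, 2282 against 1341, or 0.77 (0.70 to 0.84). In middle cells Hspb1 stood at 0.39 and Hspa1b at 0.35. Of the ER-associated degradation genes 14 of 19 were higher in members and 12 of 19 in middle cells, with Herpud1 at 0.43 in members. Of the ER chaperones 20 of 26 were higher in members and 18 of 26 in middle cells, with Sdf2l1 at 0.55 in members. Immediate early genes were higher in 11 of 19 in members, near the share of all genes, and in 4 of 21 in middle cells, with Klf6 at 0.88 and Jun at 0.64 in members.

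Antioxidant and metallothionein genes were lower in 15 of 19 in transgenic members, 5 past 1.5-fold, and in 14 of 19 in middle cells, with Mt2 in members at 1890 CPM in transgenic members against 3673, or −0.96 (−1.01 to −0.91), Mt1 at −0.68 and Gstm1, a glutathione transferase, at −1.10. Glycolysis genes were lower in 10 of 11 in members and in 9 of 10 in middle cells, with Aldoa, aldolase A, at −0.50. Nuclear-encoded oxidative phosphorylation had 30 of 75 genes higher and 45 lower in members, and 53 higher and 22 lower in middle cells; Ndufb11, a subunit of complex I, stood at −0.83 (−0.95 to −0.71) in members. Granule genes were higher in 8 of 19 in members and in 11 of 18 in middle cells, with Chga at −0.54 and Scg2 at 0.26. Insulin and IGF signalling genes were higher in 9 of 15 in members and in 3 of 15 in middle cells. Identity factors were higher in 11 of 17 in members and in 9 of 18 in middle cells, and senescence genes in 4 of 11 and in 5 of 11, where Timp2, an inhibitor of matrix metalloproteinases, stood at 1.19 on 16 WT UMIs. Of 7 miR-503 family targets past the filter 3 were higher and 4 lower in members, and of 8 in middle cells 1 was higher and 7 were lower, with Arl2, a GTPase, at −0.96 (−1.33 to −0.57) and −0.57 in middle cells.

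Last, the genotype ratio in members was set against that in middle cells. It differed by at least 1.5-fold in 185 of 5755 genes (3.21%) with a higher ratio in members and in 41 (0.712%) with a lower one. The same uneven filter applied, and with no filter the counts were 1535 and 1511. Tnfaip3, an inhibitor of NF-kappaB signalling, had 51.4 CPM in transgenic members against 20.9 in WT members and 70.3 in transgenic against 72.4 in WT middle cells, a difference of log2 ratios of 1.34 (0.77 to 1.91, a counting interval). Cd83, a surface protein of immune cells, stood at 1.40 (0.29 to 2.51), with a genotype ratio in members of 2.21 on 7 WT UMIs. Acsl4, an arachidonate-activating enzyme, stood at 1.41 (0.47 to 2.35), with a genotype ratio in members of 1.41 on 10 WT UMIs. The difference was 1.27 for Tuba1c, a tubulin, 1.26 for Capza1, an actin capping protein, and 1.19 for Slc9a8, a Golgi sodium-proton exchanger. On the lower side Nnat, neuronatin, an ER membrane proteolipid of beta cells, stood at −1.04 (−1.22 to −0.86), but 1 WT member held 51.4% of its 387 UMIs and without the top cell of each group its genotype ratio in members was 0.19 in place of −0.79. Per3, a clock protein, stood at −0.97, Pdyn, prodynorphin, at −0.89, Ddx1, an RNA helicase, at −0.79, Tmem184c at −0.76 and Tmem59l at −0.76.

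Apart from ductal and lymphoid lists, markers of other cell types summed to less in members than in cells under 20% insulin. Alpha cell markers summed to 12330 CPM in transgenic and 8689 in WT members, against 10210 and 6666 in the middle cells and 155500 and 131600 in cells under 20% insulin. Delta cell markers summed to 966 and 550, gamma cell markers to 7561 and 6139, macrophage markers to 312 and 224 and red blood cell markers to 60.1 and 55.7. Of the alpha cell list 0 markers were at 0 in transgenic and 1 in WT members, and of the lymphoid list 0 and 3. Ductal markers summed to 399 and 476, against 290 and 303.5 in middle cells and 189.6 and 205.3 in cells under 20% insulin. Of these, Krt7 stood at log2 0.50 and 0.66 in members over middle cells. Lymphoid markers summed to 113 and 64.2, against 161 and 137.2 in middle cells and 102.2 and 56.8 in cells under 20% insulin. Endothelial markers summed to 19.98 and 43.3 and stellate markers to 4.85 and 10.8. Glucagon itself took a median of 0.224% of all UMIs, insulin included, in transgenic and 0.146% in WT members, against 0.248% and 0.166% in middle cells. On UMIs outside insulin it was higher in members than in middle cells, at log2 0.19 in the transgenic and 0.25 in the WT library. Xist, which coats the inactive X chromosome of females, gave a UMI in 9.67% of transgenic members and in 14.0% of transgenic middle cells, and in 0 of 113 WT members (which allows a share of cells with a UMI of up to 2.65%), against 0.377% of WT middle cells. A UMI of a Y-linked gene was found in 74.3% of transgenic members and 77.9% of transgenic middle cells, and in 66.4% of WT members and 82.0% of WT middle cells. The part of RNA from other cells and of cells with a Xist UMI in the differences between genotypes was not tested.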

How the data were processed

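The deposited files hold UMI counts per gene and cell for 27998 genes, with 1 library per genotype. Per the submitters' processing notes, Cell Ranger 2.1.0, STAR 2.5.1b and genome build mm10 were used; the counts as deposited by the authors were not normalized. Cells were grouped by insulin share and the limits given in the text, and counts were summed per group and divided by UMIs outside Ins1 and Ins2. Ratios carry exact conditional binomial 95% intervals, shares Clopper-Pearson intervals, and a floor of 3 counts replaced a group at 0; all cover counting error only. With 1 library per genotype the samples could not be tested against each other.

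Genes were named by rank: the 10 highest and 10 lowest in each comparison, 6 each way for the difference of genotype ratios, and up to 4 per list; sex-linked, hormone and other-cell marker genes were left out of the ranks. Hspa5, Calr, Canx, Dnajc3, Hsp90b1 and Pdia6 (genes with the ER stress element) fall outside this rule and were chosen after their values were seen. The members and lists were chosen with earlier results of these data known. Doublets were scored with scanpy 1.11.5 (Scrublet) and kept; the automatic calls, 17 transgenic (0.409%) and 2 WT barcodes (0.0441%), were below the 0.5% at which the caller was taken to have worked. TMM factors came from edgeR 4.0.16 in R 4.3.3, with no edgeR test. Other steps used Python 3.11.15, numpy 2.4.6, scipy 1.17.1, pandas 2.3.3 and matplotlib 3.10.9. The ratio and interval steps were tested on simulated data.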

Additional observations from a re-analysis of the deposited data

Results flagged for a closer look

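For 4 named genes the ratio of members over middle cells had opposite signs in the 2 libraries, with counting intervals off 0 in both; with 1 library per genotype this difference was not tested. Hspb1, a small heat shock protein, stood at log2 0.31 in the transgenic and −0.32 in the WT library, a difference of 0.633. Jun, an immediate early transcription factor, stood at 0.41 and −0.11, a difference of 0.52. Egr1, another immediate early factor, stood at 0.26 and −0.32, a difference of 0.572. Rbp4, a retinol carrier, stood at −0.21 and 0.48, a difference of −0.691. Scaled to all UMIs, insulin included, the signs no longer differed for Hspb1 (−0.08 and −0.81), Egr1 (−0.14 and −0.80) and Rbp4 (−0.60 and −0.0074), and Jun stood at 0.018 and −0.60. Matched on total UMIs, Egr1 (−0.18 and −0.76) and Jun (−0.013 and −0.61) had 1 sign in both libraries, while Hspb1 (0.33 and −0.43) and Rbp4 (−0.33 and 0.40) kept opposite signs.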

How the results depend on the processing

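No paired analysis was possible because each genotype was 1 library. The 18 genes higher and 148 lower in members in both libraries became 31 and 91 under TMM scaling, 1 and 846 when scaled to all UMIs, 34 and 321 with no CPM minimum, 316 and 437 with no filter, 150 and 663 with members from 70% against cells from 45% to below 60%, 2 and 48 when matched on total UMIs, 238 and 832 at a log2 ratio of 0.32 and 2 and 2 at 2-fold. Chosen after seeing the data, WT middle cells matched on insulin share gave 8 higher, and members below 70% gave 11 and 82. The 335 genes higher and 169 lower in transgenic members became 51 and 57 when scaled to all UMIs, 1113 and 643 at a log2 ratio of 0.32, 59 and 21 at 2-fold, 1770 and 1651 with no filter, and 508 and 104 without each gene's top cell per group (also chosen after seeing the data); 528 were higher with cells weighted equally and 574 with no CPM minimum. When scaled to all UMIs, the minimum of 20 was also counted with insulin included, which is a stricter limit. Each genotype ratio in members moved by only −0.04 on that scale, so the falls to 51 and 57 mostly reflect the limit. The 185 higher and 41 lower differences of genotype ratios became 28 and 3 when scaled to all UMIs (under the same stricter limit), 399 and 82 with equal weights, 383 and 98 with no minimum, 1535 and 1511 with no filter, 811 and 380 at a log2 ratio of 0.32, 19 and 2 at 2-fold, and 335 and 15 without the top cells. The lower count was 68 outside Iapp and mitochondrial genes, 98 with the 70% and 60% limits, 77 matched on total UMIs, 68 matched on other UMIs and 65 with WT middle cells matched. Member shares were 53.2% transgenic and 13.7% WT from 60%, 5.09% and 0.570% from 70%, and 14.1% and 2.88% of all kept cells; of cells from 45% the WT share was 5.06%. Ratios past 1.5-fold with intervals off 0 that changed sign under the 70% and 60% limits, which leave 16 WT members, were the WT ratios of Dzip1l (0.23), Rfx3 (0.036) and Nnat (−0.47), and the genotype ratios in members of Prr7 (−0.38), Cd83 (−0.30), Nnat (1.33), Ldhb (−0.97), Elavl4 (−0.21) and Ndufa4 (0.29). Without the top cells the genotype ratio of Nnat was 0.19. List medians at least 0.1 from all genes changed sign to −0.026 and −0.033 for the genotype ratios of ER chaperones and ER-associated degradation, and 0.024 for the WT ratio of insulin mRNA binding genes, under those limits. Scaled to all UMIs they came to 0.028 (ER-associated degradation, WT) and 0.077 (immediate early, transgenic), because other genes passed the filter on that scale. On the same genes as before these 2 medians stayed at −0.229 and −0.11. Matched on total UMIs, list medians changed sign to −0.022 (glucose sensing, WT) and −0.011 (MHC class I, WT). Immediate early genes came to 0.016 with members below 70% (transgenic), and for the genotype ratio to −0.071 with equal weights and −0.033 with no filter. The cause of the other sign changes was not tested. Of the gene ratios under the alternatives 6846 moved within their counting interval, 1340 moved beyond it, and 10 of those past 1.5-fold changed sign. With smaller ratios included, 384 of 8196 changed sign, 122 of 683 when scaled to all UMIs and 97 of 683 under the 70% and 60% limits. Depth limits the WT members most, with 113 cells.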
